A study of Mus musculus with 4 samples.

Results

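The genes described here are the 5 subunits of the transcription factor NF-κB (Nfkb1, Nfkb2, Rel, Rela and Relb) and 5 genes that restrain it (Nfkbia, Nfkbib, Nfkbie, Nfkbiz and Tnfaip3). They were taken by symbol, through a GRCm38 annotation, from tables of 55421 Ensembl genes, and all 10 had enough counts to be among the 21563 genes tested. RNA came from what the labels call macrophages of pancreatic islets, from mice labelled WT of the inbred strain C57BL/6. Mice ate either normal chow (NCD, 2 libraries) or fat-rich food (HFD, 2 libraries), which is used to induce obesity. The sources used here do not give the age of the mice, how long they were fed, or how many animals a library holds. No label says that replicate libraries stem from different animals, so the p-values cover only the variation among these 4 libraries, which could be technical.

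NF-κB acts as dimers of Rel-family proteins. In resting cells IκB proteins hold the dimers in the cytoplasm, and the IκB kinase (IKK) complex marks the IκBs for destruction when receptors for TNF, IL-1 or microbial products are engaged. The dimers then enter the nucleus and switch on inflammatory genes together with several of their own inhibitors, which closes a feedback loop. In macrophages this circuit drives the production of cytokines and chemokines.

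The κB consensus, the DNA element that NF-κB dimers bind, was searched on both strands of RefSeq promoter windows (GRCm38), each running from 250 bases before to 50 after a start site. A window was found for 7 of the 10 genes, and Nfkb1, Relb and Nfkbiz had none. Nfkb2, Rel, Nfkbia, Nfkbie and Tnfaip3 held a match, and Rela and Nfkbib did not. A match was present in 5.13% of the 26994 genes with a window. The places upstream of the first start site are shown for all 5 of the 10 genes that held a match. Each is written 5′ to 3′ on the strand of its gene, with the match in capitals. Overlapping matches were merged into one run of capitals, and positions are counted from the start site, with -1 the base before it.
Nfkb2, chr19:46304689-46304717, plus strand, match from -39 to -29: gatcgtcacGGGAATTCCCCccctcgggg
Nfkb2, chr19:46304716-46304736, plus strand, match from -11 to -2: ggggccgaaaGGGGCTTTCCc
Rel, chr11:23771042-23771070, minus strand, match from -92 to -82: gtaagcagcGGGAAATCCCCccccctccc
Nfkbia, chr12:55492657-55492686, minus strand, match from -29 to -20: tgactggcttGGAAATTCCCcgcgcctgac
Nfkbie, chr17:45555584-45555613, plus strand, match from -106 to -97: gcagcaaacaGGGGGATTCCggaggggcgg
Tnfaip3, chr10:19015516-19015545, minus strand, match from -125 to -116: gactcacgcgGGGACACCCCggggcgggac
Tnfaip3, chr10:19015411-19015432, minus strand, match from -12 to -3: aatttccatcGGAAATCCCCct
A match of letters is a description and not a site shown to be bound. Nfkb2 has 3 windows in the table, all with a match, and Tnfaip3 has 2, of which the second holds none.

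The libraries held 56740720 to 64490097 counts each. Low counts fell on multiples of 4 more often than on their neighbours, by a factor of 1.67 to 1.78. Of the marker lists examined, the endocrine list had the highest sum, with 8 islet hormone and endocrine genes at 31910 to 34760 CPM (gene counts scaled to a common library total). The 10 macrophage markers summed to 579 to 645 CPM, and each had counts in every library. These libraries therefore hold transcripts of macrophage markers beside those of other islet cells. Calls are from edgeR's quasi-likelihood test at a Benjamini-Hochberg adjusted p under 0.05.

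Transcripts of most of these genes were more abundant in HFD, and the median difference was larger for the inhibitors than for the subunits, a contrast that was not tested. All 5 inhibitors and 4 of 5 subunits were called higher in HFD, with median log2 changes of 1.13 and 0.57. Over all genes tested the median was 0.0026, and 17.9% were called higher, 14.5% lower and 32.4% in either direction. Of the 10 genes, 9 were called higher, none lower, and Rela did not pass. In each of the 10, both HFD libraries lay above both NCD libraries, for Rela only barely (95.56 CPM in HFD replicate 1 against 95.26 in NCD replicate 1). Over all genes the same held for 34.5%, and the reverse order for 33.2%. The genes fell into a group with log2 changes above 1 (Nfkbie, Rel, Tnfaip3, Nfkbia and Nfkbiz) and a group between 0.25 and 0.28 (Rela, Relb and Nfkbib), with Nfkb1 and Nfkb2 between them. Single-gene levels below are CPM from TMM-scaled library sizes, with means ± SD of the 2 libraries of a diet (n = 2), and standard errors of log2 changes come from the F statistic. In these bulk libraries a larger number of expressing cells and more RNA per cell cannot be told apart.

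**Figure D1:**
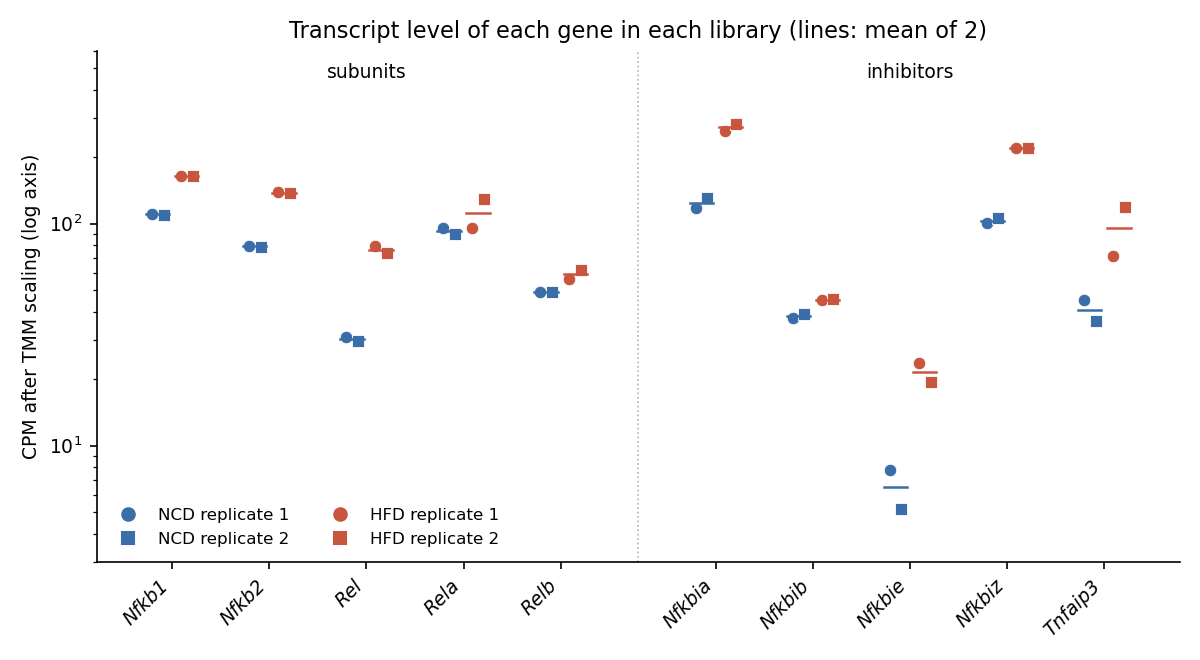
CPM of each gene in each of the 4 libraries on a log axis, NCD in blue and HFD in red, with the mean of each diet as a line. The HFD points lie above the NCD points for all 10 genes, by the widest margin for Nfkbie and only barely for Rela. The HFD replicates are far apart for Tnfaip3 and Rela.

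Among the subunits, Rel, which encodes c-Rel, a transactivating subunit abundant in lymphoid and myeloid cells, changed most. Rel lies on chromosome 11 from 23736847 to 23770970 on the minus strand of GRCm38. It stood at 31.0 and 29.6 CPM in NCD and at 78.9 and 73.4 CPM in HFD. Both HFD libraries were far above both NCD libraries and close to each other. The mean went from 30.3 ± 0.982 to 76.2 ± 3.87 CPM, 2.52-fold, a log2 change of 1.33 ± 0.0716 (SE; edgeR adjusted p = 0.000221).

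Nfkb2 encodes p100, the precursor of p52 and an inhibitor of RelB-containing dimers until it is processed. The gene lies on chromosome 19 from 46304320 to 46312385 on the plus strand. It stood at 79.4 and 78.3 CPM in NCD and at 138.0 and 137.7 CPM in HFD. The libraries of a diet were nearly equal, and the diets differed 1.75-fold (log2 change 0.81 ± 0.0497, edgeR adjusted p = 0.000321). On the opposite strand, exons of Psd cover 6.52% and those of AC114539.1 cover 11.6% of its exon bases. Psd had 4307 to 4929 counts in NCD and 3242 to 3642 in HFD, so its counts went the other way. AC114539.1 had 459 and 331 counts in NCD and 393 and 405 in HFD, so the diets overlapped.

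Nfkb1 encodes p105, the precursor of p50, the DNA-binding partner of RelA in the classical dimer. The gene lies on chromosome 3 from 135584655 to 135691547 on the minus strand. It stood at 110.7 and 109.3 CPM in NCD and at 163.7 and 163.5 CPM in HFD. The diets differed 1.49-fold, with an SD of 0.975 in NCD and 0.110 in HFD (log2 change 0.57 ± 0.0467, edgeR adjusted p = 0.000739).

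Rela encodes p65, the main transactivating subunit of the classical dimer, and lies on chromosome 19 from 5637483 to 5648130 on the plus strand. It stood at 95.3 and 89.3 CPM in NCD and at 95.6 and 128.6 CPM in HFD. HFD replicate 1 was at the level of NCD replicate 1, and only HFD replicate 2 was clearly higher. The log2 change of Rela was 0.28 ± 0.142 (edgeR adjusted p = 0.199). Without HFD replicate 1 it was 0.49 and passed (edgeR adjusted p = 0.0127), and without HFD replicate 2 it was 0.05 (edgeR adjusted p = 0.744), which are the lowest and highest adjusted p over its 12 alternatives.

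Relb encodes the subunit that pairs with p52 in the non-canonical pathway and lies on chromosome 7 from 19606217 to 19629438 on the minus strand. It stood at 49.3 and 49.2 CPM in NCD and at 56.3 and 62.0 CPM in HFD. Both HFD libraries were somewhat higher, and the log2 change of Relb was 0.26 ± 0.0725 (edgeR adjusted p = 0.0419). The call was lost in 5 of 12 alternatives. These were NCD replicate 1, NCD replicate 2 or HFD replicate 2 left out (edgeR adjusted p = 0.135, 0.135 and 0.192), no count filter (0.0676) and a replicate block (0.0662), and its adjusted p over all alternatives ran from 0.00150 to 0.192.

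Among the inhibitors, Nfkbia encodes IκBα, the IκB that NF-κB resynthesises fastest. It lies on chromosome 12 from 55489410 to 55492647 on the minus strand. It stood at 116.9 and 130.2 CPM in NCD and at 261.4 and 280.2 CPM in HFD. Both HFD libraries were far above both NCD libraries. The mean ratio was 2.19 and the log2 change 1.13 ± 0.0709 (edgeR adjusted p = 0.000336).

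Nfkbie encodes IκBε, an inducible IκB that acts later than IκBα. It lies on chromosome 17 from 45555703 to 45563169 on the plus strand. It was the least abundant of the 10, at 7.76 and 5.20 CPM in NCD against 23.5 and 19.3 in HFD. Its ratio of 3.31 was the widest among them (log2 change 1.72 ± 0.224, edgeR adjusted p = 0.00358). Its replicates also spread more than those of most others, and the log2 change ran from 1.46 to 2.04 when single libraries were left out.

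Nfkbiz encodes IκBζ, a nuclear IκB that also serves as a co-activator of genes such as Il6, and lies on chromosome 16 from 55811375 to 55838899 on the minus strand. It stood at 100.6 and 105.5 CPM in NCD and at 218.9 and 219.6 CPM in HFD. The HFD replicates were nearly equal, and the diets differed 2.13-fold. The log2 change was 1.09 ± 0.0494 with the smallest adjusted p of the 10 genes (edgeR adjusted p = 0.000136).

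Tnfaip3 encodes A20, a ubiquitin-editing enzyme that shuts off signalling upstream of IKK, and lies on chromosome 10 from 19000910 to 19015657 on the minus strand. It stood at 45.3 and 36.3 CPM in NCD and at 71.4 and 119.2 CPM in HFD. The diets did not overlap, but the HFD replicates were far apart. The log2 change of Tnfaip3 was 1.22 ± 0.253 (edgeR adjusted p = 0.0170). It was 0.80 without HFD replicate 2 and 1.55 without HFD replicate 1, and the call was lost without NCD replicate 2 (edgeR adjusted p = 0.0633, in a range of 0.00255 to 0.0633).

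Nfkbib encodes IκBβ, an IκB that NF-κB induces little, and lies on chromosome 7 from 28758251 to 28767512 on the minus strand. It stood at 37.5 and 39.2 CPM in NCD and at 45.1 and 45.8 CPM in HFD. The step was small and close to that of Relb (log2 change 0.25 ± 0.0679, edgeR adjusted p = 0.0418). This call was lost in 6 of 12 alternatives, which were each library left out (edgeR adjusted p = 0.0967 to 0.166), no count filter (0.0678) and a replicate block (0.0729), in a range of 0.00138 to 0.166 over all of them. Exons of Ccer2 and Sirt2 on the opposite strand cover 14.5% and 1.94% of its exon bases. Ccer2 had 7 and 16 counts in NCD and 68 and 78 in HFD, against 2415 to 2792 counts of Nfkbib. Sirt2 had 6018 and 3948 counts in NCD and 4659 and 4415 in HFD, so the diets overlapped. The part of overlapping genes in the change of Nfkbib and Nfkb2 was not tested.

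Read against the promoter windows, the 5 genes with a κB match had log2 changes of 0.81 to 1.72, and the 2 without one, Rela and Nfkbib, had 0.28 and 0.25. Nfkbiz (1.09), Nfkb1 (0.57) and Relb (0.26) could not be placed on either side. Of further pathway genes described below, Nfkbid and Bcl3 both held a match, with log2 changes of 1.30 and 0.30. So did 4 of 11 other brakes with a window (list median -0.03) and 9 of 17 textbook targets (list median 1.79). In the remaining lists a match was held by 1 of 8 IKK and related kinase genes (list median -0.07). It was held by 2 of 16 adaptors and ubiquitin ligases (0.35) and 2 of 9 receptors (0.34). These medians cover all tested genes of a list, with or without a match. Whether a match goes with a larger change was not tested.

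Levels were compared between genes as CPM per kilobase of exon from unscaled library totals, using the summed length of all annotated exons of a gene. Nfkbia was the most abundant of the 10 on this scale, at 76.7 ± 5.82 in NCD and 168.1 ± 7.91 in HFD. Rela (30.04 ± 1.36), Nfkbiz (20.5 ± 0.680), Nfkbib (17.7 ± 0.555) and Nfkb2 (17.2 ± 0.176) followed in NCD, where Nfkbib and Nfkb2 overlapped. Below them stood Relb, Nfkb1, Tnfaip3 and Rel, from 12.7 ± 0.0283 down to 4.06 ± 0.131, with Nfkbie last at 2.13 ± 0.594. In HFD, Nfkbiz (43.65 ± 0.00805) stood above Rela (36.5 ± 7.53), and Nfkb2 (30.05 ± 0.121) above Nfkbib (20.9 ± 0.183). The HFD libraries of Tnfaip3 (9.89 and 16.45) spanned those of Relb and Nfkb1 and overlapped those of Rel. Nfkb1 stood above Rel without overlap, and Nfkbie remained last. The place of Nfkb1 rests on its length, since its annotated exons sum to 12061 bases while its longest transcript has 4149. With longest transcripts it took place 3 in NCD, at 26.4 to 26.7, instead of place 7.

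The 5 inhibitors together stood at 118.7 and 126.6 CPM per kilobase in NCD and at 244.5 and 261.2 in HFD. The 5 subunits together stood at 74.3 and 71.8 in NCD and at 99.9 and 111.0 in HFD. The ratio of the inhibitor sum to the subunit sum was thus 1.60 and 1.76 in the NCD libraries and 2.45 and 2.35 in the HFD libraries, without overlap. Without Nfkbia in the inhibitor sum it was 0.620 and 0.638 in NCD and 0.821 and 0.789 in HFD. Relative to Rela, the level of Nfkbia per kilobase was 2.34 and 2.78 in NCD and 5.22 and 4.16 in HFD. The ratio of Nfkbib to Rela had means of 0.589 in NCD and 0.586 in HFD, and that of Relb to Rela 0.422 and 0.424, with overlapping libraries. These ratios are descriptions and carry no test.

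**Figure D2:**
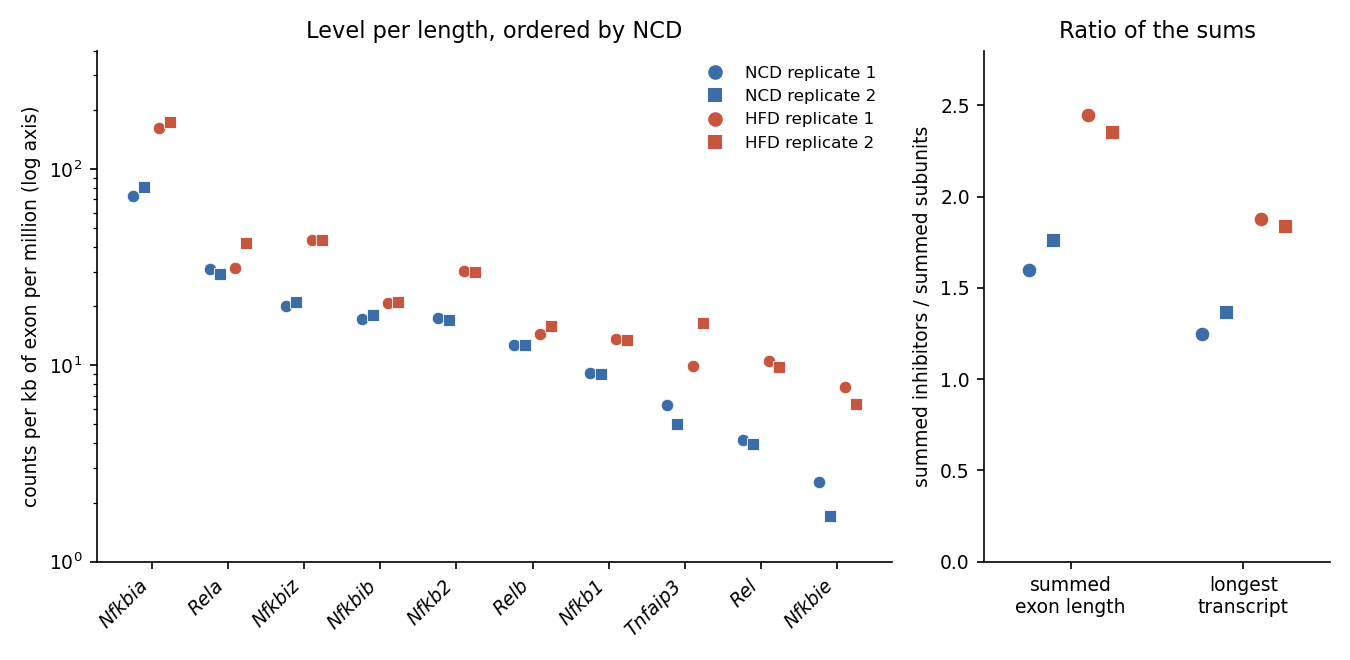
Left, CPM per kilobase of summed exon length for each gene and library on a log axis, ordered by the NCD mean. Right, the ratio of the inhibitor sum to the subunit sum in each library with either gene length, which is higher in both HFD libraries (2.35 and 2.45 with summed exons) than in both NCD libraries (1.60 and 1.76).

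The make-up of the subunit pool also differed. Rel made up 5.58% and 5.52% of the summed subunit level per kilobase in NCD and 10.6% and 8.84% in HFD. Nfkb2 made up 23.3% and 23.8% in NCD and 30.2% and 27.0% in HFD. The share of Rela was 41.7% and 40.5% in NCD and 31.2% and 37.6% in HFD, and that of Relb went from 17.1% and 17.6% to 14.5% and 14.3%. In the inhibitor pool the share of Nfkbib went from 14.5% and 14.2% to 8.51% and 8.07%, while Nfkbia made up 61.2% and 63.8% in NCD and 66.4% and 66.5% in HFD.

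Other genes of the pathway were taken from 6 lists of 80 genes by role, of which 79 were tested, 42 were called higher and 5 lower (edgeR adjusted p under 0.05, against 17.9% and 14.5% of all genes). Of the nuclear IκB proteins besides Nfkbiz, both were called higher. Nfkbid, encoding IκBNS, stood at 7.66 and 7.92 CPM in NCD against 18.5 and 19.9 in HFD (log2 change 1.30 ± 0.115). Bcl3, a nuclear partner of p50 and p52 homodimers, had a log2 change of 0.30 ± 0.0701 (edgeR adjusted p = 0.0247). That call was lost with a replicate block (edgeR adjusted p = 0.0519) and without NCD replicate 2, HFD replicate 1 or HFD replicate 2 (0.109, 0.0557 and 0.114), in a range of 9.37e-05 to 0.114.

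The kinases split. Of 10 genes of the IKK complex and related kinases, 3 were called higher and 3 lower, and the median log2 change was -0.07. Ikbkb, encoding the IKKβ subunit that drives the classical pathway, rose from 78.5 and 77.2 to 103.7 and 99.4 CPM (log2 change 0.38 ± 0.0557, edgeR adjusted p = 0.00526). Its partners in the same complex went the other way. Ikbkg, encoding the scaffold NEMO, was at 72.0 and 70.2 CPM in NCD against 51.1 and 51.5 in HFD (log2 change -0.47 ± 0.0589, edgeR adjusted p = 0.00310). Chuk, encoding IKKα, was at 157.8 and 161.3 CPM in NCD against 130.4 and 126.1 in HFD (log2 change -0.31 ± 0.0489, edgeR adjusted p = 0.00652). Map3k14, encoding NIK, the kinase that starts the processing of p100, rose from 17.2 and 15.8 to 30.6 and 31.7 CPM (log2 change 0.92 ± 0.0922, edgeR adjusted p = 0.00147). The other calls in the list were Ikbke, higher, and Tab2, lower, and neither held throughout. Without NCD replicate 1 or HFD replicate 1, Ikbke lost its call and 2 genes of the list were called higher. Tab2 lost its call, which left 2 genes lower, with any single library left out, with a replicate block, with DESeq2 size factors in edgeR, without a count filter and with a filter at a mean of 5 CPM.

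Of 20 adaptors and ubiquitin ligases, 9 were called higher, none lower in the edgeR fit described above, and 11 did not pass (median log2 change 0.35). Traf6, at an unadjusted p of 0.0162 in the edgeR fit, was the sole gene of this list with an unadjusted p under 0.05 and a negative change, and 1 gene was called lower by DESeq2, by limma-voom and by edgeR with library sizes that leave out endocrine, acinar and most-counted genes. Traf1, an adaptor that NF-κB induces, rose from 4.66 ± 0.0535 to 32.3 ± 0.379 CPM (log2 change 2.79 ± 0.102, edgeR adjusted p = 7.8e-05). Malt1, which encodes a protease that relays antigen receptor signals to IKK in lymphocytes, rose from 21.1 ± 0.166 to 46.0 ± 4.05 CPM (log2 change 1.12 ± 0.0904).

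Of 15 other brakes on the pathway, 5 were called higher, 1 lower and 9 did not pass (median log2 change -0.03). Zc3h12a, encoding the RNase regnase-1, rose from 27.9 and 25.5 to 58.2 and 49.5 CPM (log2 change 1.01 ± 0.106). Irak3, a decoy kinase of Toll-like receptor signalling, rose from 10.3 and 9.83 to 20.4 and 24.7 CPM (log2 change 1.16 ± 0.134). Pdlim2, encoding a nuclear ubiquitin ligase for RelA, rose from 0.791 and 1.13 to 3.84 and 3.92 CPM (log2 change 2.02 ± 0.284). Tnip3, which encodes the A20-binding protein ABIN-3, was called higher at low levels, with 0.427 ± 0.0781 CPM in NCD against 2.04 ± 0.337 in HFD (log2 change 2.25 ± 0.361, edgeR adjusted p = 0.00724). Tnip1 and Cyld did not pass. Tnip1, which encodes the A20-binding protein ABIN-1, stood at 126.0 ± 0.566 CPM for NCD against 119 ± 0.810 for HFD (edgeR adjusted p = 0.269). Cyld, a deubiquitinase, stood at 77.9 ± 6.98 CPM for NCD against 72.0 ± 1.73 for HFD (edgeR adjusted p = 0.333). The gene called lower, Rnf11 (log2 change -0.23), lost its call without NCD replicate 1, HFD replicate 1 or HFD replicate 2.

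Upstream of the kinases, 5 of 11 receptor genes were called higher and 1, Il1r1, lower (median log2 change 0.34). Il1r1, an IL-1 receptor gene, had the highest CPM of the list. It went from 681.8 and 702.5 to 562.2 and 560.1 CPM (log2 change -0.30 ± 0.0354, edgeR adjusted p = 0.0025). Tnfrsf1b, encoding the TNF receptor TNFR2, rose from 47.2 and 41.8 to 109.7 and 104.4 CPM (log2 change 1.27 ± 0.0805). Il18r1, an IL-18 receptor chain, rose from 1.09 and 1.21 to 7.04 and 5.58 CPM (log2 change 2.46 ± 0.231). Tlr4, the lipopolysaccharide receptor, rose from 11.3 ± 0.478 to 23.5 ± 0.659 CPM (log2 change 1.05 ± 0.103).

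Downstream, 18 of 21 tested textbook targets of NF-κB were called higher, none lower by edgeR, DESeq2 or limma-voom, and none had a negative change at an unadjusted p under 0.05 (median log2 change 1.79). The list holds 22 genes, and Ccl20 had too few counts to be tested. Ptgs2, the inducible cyclooxygenase, had a log2 change of 2.86 ± 0.0583, Il1b 3.25 ± 0.0805 and the chemokine gene Ccl2 2.42 ± 0.0782. The 3 that did not pass were Ccl5, Sod2 and Bcl2l1. Bcl2l1, which encodes the survival protein Bcl-xL, was at 83.7 and 85.4 CPM in NCD and at 29.3 and 72.1 CPM in HFD. Its HFD replicates differ far more than its NCD replicates, and without HFD replicate 2 it was called lower.

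**Figure D3:**
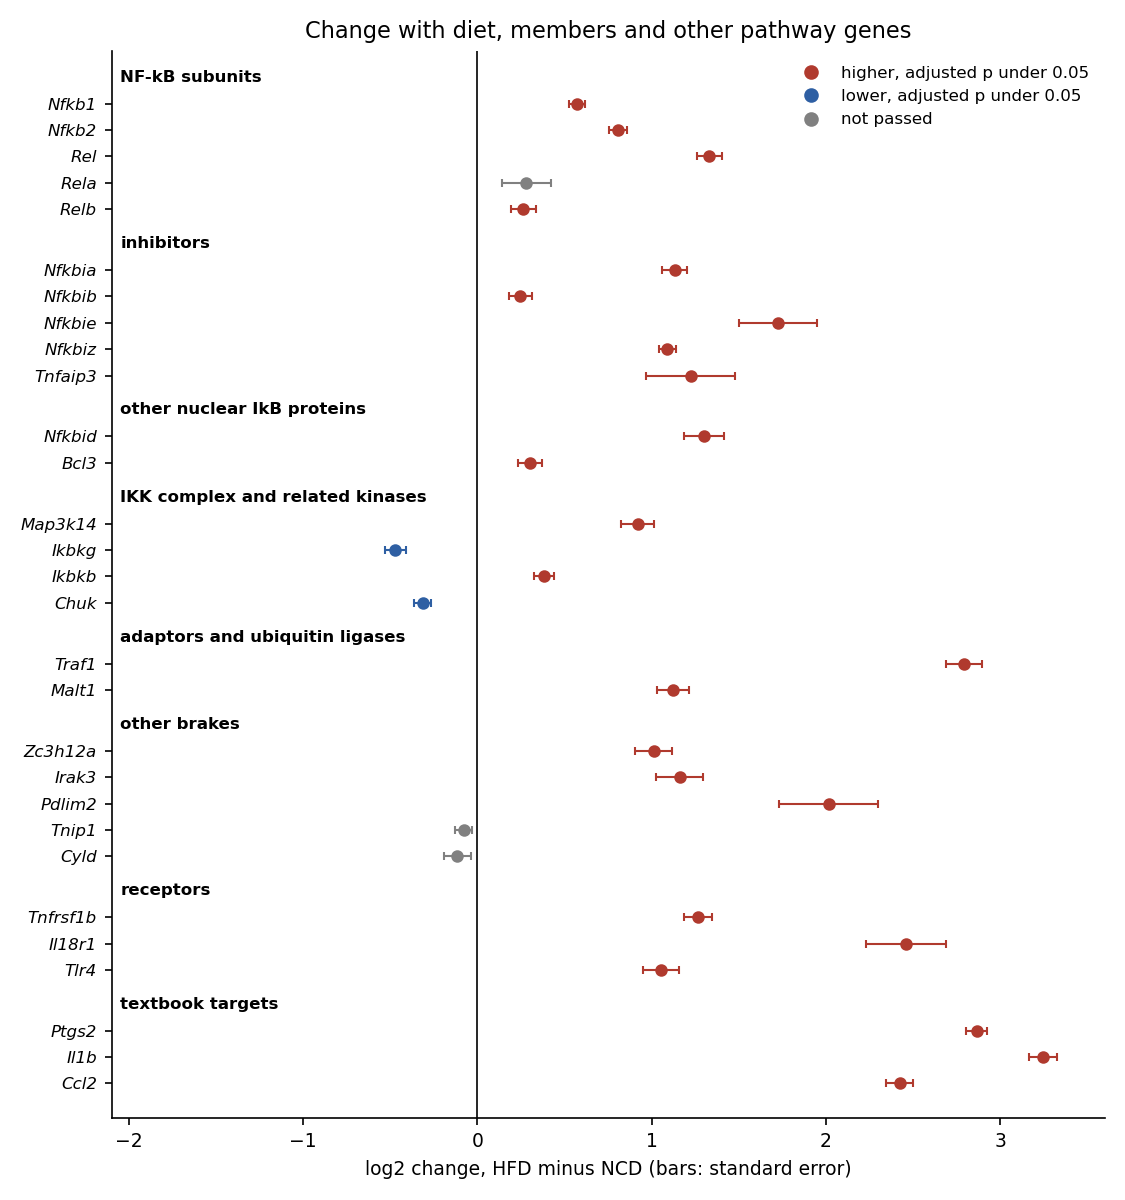
Log2 change, HFD minus NCD, with its standard error for the 10 genes and for other pathway genes, grouped by role. Pathway genes named after their values were seen, such as Tnip3, Rnf11, Il1r1 and Tnfrsf13c, are not shown. Inhibitors other than Nfkbib lie above 1, Rela and Relb lie near 0.3, and the IKK genes lie on both sides of 0.

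Markers of some other cell types were also higher in HFD, while other marker lists were mixed or mostly lower. Ptprc, which encodes CD45 of all leukocytes, stood at 54.8 and 52.7 CPM in NCD and at 134.3 and 130.3 CPM in HFD (log2 change 1.30 ± 0.0566, edgeR adjusted p = 0.000119). The 10 macrophage markers summed to 600.6 and 579.1 CPM in NCD against 622.1 and 644.8 in HFD, with 4 called higher and 4 lower. Cd14 (mean CPM 32.3 in NCD and 104.0 in HFD), Itgam (20.2 and 53.9), Csf1r and Mertk were called higher. Cd68 (146.1 and 121.9), C1qa, C1qb and C1qc (71.9 and 52.5) were called lower. The 6 B cell markers, all called higher, summed to 30.6 and 30.3 CPM in NCD against 179.0 and 186.1 in HFD. The 6 T cell markers, all called higher, summed to 8.20 and 7.35 CPM in NCD against 60.8 and 52.3 in HFD.

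Of 6 dendritic cell markers 4 were tested and 3 called higher, and the sum went from 18.4 and 17.5 to 136.5 and 115.4 CPM, of which Ccr7 made up 102.8 and 81.6 in HFD, while Cd209a had no count. The 6 neutrophil markers summed to 10.4 and 8.36 CPM in NCD and 7.40 and 8.23 in HFD, nearly all of it from Csf3r. Csf3r was the only 1 of them tested and did not pass. Cxcr2 had no count in NCD and 36 and 4 counts in HFD, and S100a8, Ly6g and Mpo had no count in any library. All 6 fibroblast markers were called higher, with a sum of 70.3 and 73.7 CPM in NCD and 1093 and 1120.0 in HFD, as were all 8 acinar markers, with 397.3 and 416.5 CPM in NCD and 2806 and 3143 in HFD. Of 6 endothelial markers 4 were called higher and 1 lower, with a sum of 1144 and 1179 CPM in NCD and 1537 and 1532 in HFD. Of 6 ductal markers 4 were called higher and 1 lower (1216 and 1272 against 2179 and 2411 CPM), and of 8 endocrine genes 1 higher and 5 lower. Of 11 genes induced by stress or handling of tissue, such as Fos and Egr1, 10 were called higher, with a sum of 1056 and 1060.0 CPM in NCD and 2948 and 3117 in HFD. The part of these cell types and of handling in the changes of the NF-κB genes was not tested.

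The direction of the difference depended on what the genes were set against. The macrophage sum differed little between the diets but joins 4 markers called higher and 4 called lower. Divided by the summed macrophage markers of the same library, 9 of 10 genes were higher in both HFD libraries than in both NCD libraries and Rela overlapped, with ratios of means from 1.10 for Nfkbib to 3.09 for Nfkbie. Divided by Ptprc, 6 genes were lower in both HFD libraries (Nfkb1, Nfkb2, Rela, Relb, Nfkbib and Nfkbiz), Rel, Nfkbia and Tnfaip3 overlapped, and Nfkbie was higher. Ptprc itself was 2.46-fold higher in HFD, so any gene that rose clearly less falls below 1 by construction. How many of all genes lie on each side under either division was not counted, so these counts describe the denominators as much as the genes. The ratio of means against Ptprc was 0.482 for Nfkbib, 0.488 for Relb and 0.494 for Rela. It was 0.604 for Nfkb1 and 0.710 for Nfkb2. For Nfkbiz it was 0.863, for Nfkbia 0.889, for Tnfaip3 0.953, for Rel 1.02 and for Nfkbie 1.35.

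**Figure D4:**
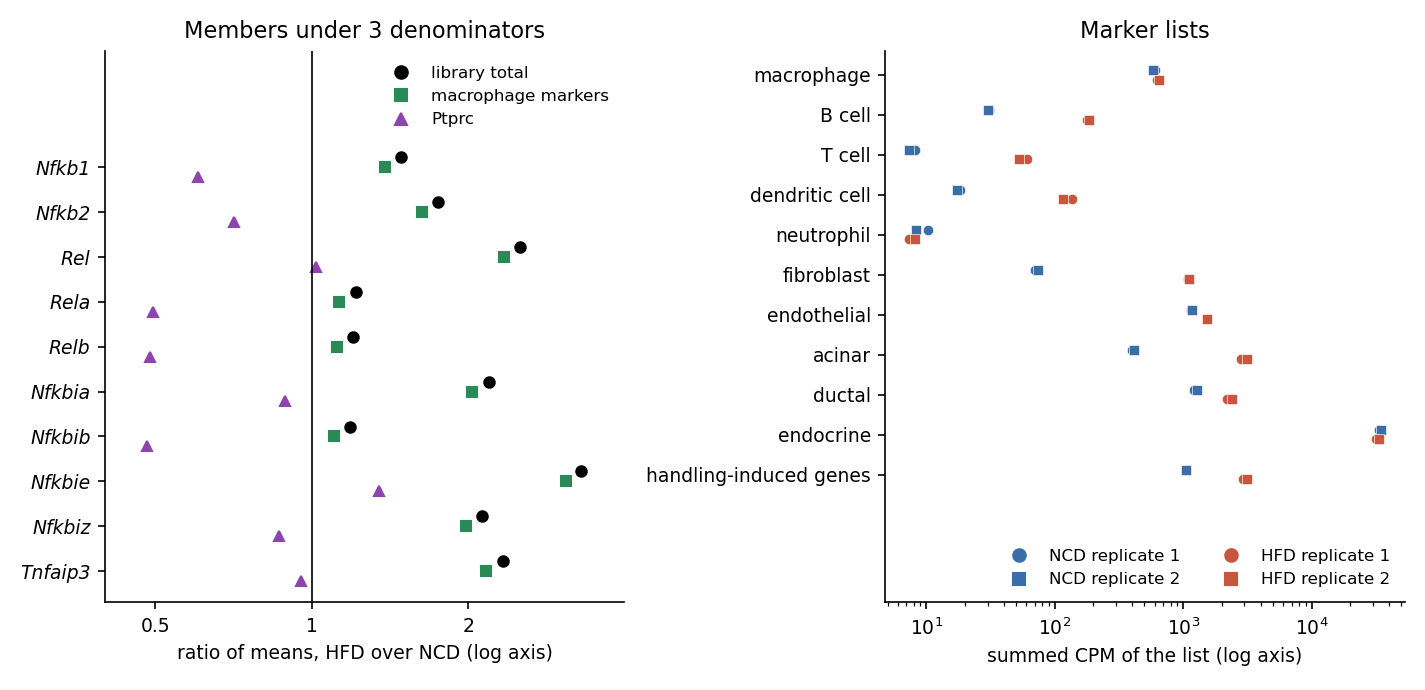
Left, ratio of the HFD mean to the NCD mean of each gene on a log axis, as a share of the library, of the summed macrophage markers and of Ptprc. Right, summed CPM of each marker list in each library on a log axis. Against the library or the macrophage markers the 10 ratios lie above 1, and against Ptprc, itself 2.46-fold higher in HFD, 8 of them lie below 1.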

How the data were processed

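The authors deposited raw counts for each Ensembl gene, 1 table per library. Per the submitters' processing notes, HISAT, featureCounts 1.5.0, DESeq 1.8.3 and build GRCm38 were used, without roles or settings. Per the labels' protocols, islets were frozen, RNA was extracted with TRIzol and libraries were made with a stranded kit. The sources used here do not give how macrophages were separated, whether counting used strand, or how multiply matching reads were handled. Symbols and lengths came from GENCODE M21 (55240 of 55421 identifiers matched).

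Counts were tested in R 4.3.3 with edgeR 4.0.16 (filterByExpr with a minimum count of 10, TMM, quasi-likelihood F test for diet, no replicate block, Benjamini-Hochberg adjustment over 21563 genes). The common biological coefficient of variation was 19.1%. CPM use TMM-scaled library sizes, and levels per kilobase and marker sums use unscaled totals. Libraries of a diet differed by more than sampling noise. On simulated counts of 20892 genes, the test found 4% of genes above 5 CPM that had been changed 1.25-fold, 28% at 1.5-fold, 86% at 2-fold and 98% at 4-fold. Only 50 genes were changed at each fold, whereas 32.4% of genes were called in the data. The adjustment is stricter when fewer genes change, so these shares need not hold for the data.

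The genes and lists were chosen with earlier results of these data known. Named were the 10 genes, up to 3 genes per further list with the smallest p at a mean of at least 1 CPM, and always Bcl3, Nfkbid, Chuk, Ikbkb, Ikbkg, Map3k14, Tnip1 and Cyld. A gene that this rule names is not reported here, though counts over lists include it. Ikbke, Tab2, Traf6, Tnip3, Rnf11, Il1r1, Ccl5, Sod2, Ccl20 and Bcl2l1 were named after their values were seen. Alternatives were edgeR with size factors from DESeq2 1.42.0, that tool's Wald test, limma-voom (limma 3.58.1), omission of each library, blocking on replicate number, no count filter or one at a mean CPM of 5, counts divided by 4, and library sizes that leave out endocrine and acinar markers and any gene above 1% of a library.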

Additional observations from a re-analysis of the deposited data

How the results depend on the processing

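With each of 12 alternatives, none of the 10 genes changed direction. Of 120 values, 107 kept their side of the threshold, 12 lost the call and 1 (Rela without HFD replicate 1) gained it, and 11 of the 12 losses were those of Relb and Nfkbib. Nfkb1, Nfkb2, Rel, Nfkbia, Nfkbie and Nfkbiz kept their calls throughout. Of 238 values of 20 other named pathway genes, 234 kept their side and 4, all of Bcl3, lost the call. Leaving out single libraries gave 3 to 5 subunits and 3 to 4 inhibitors called higher (3 without NCD replicate 2), 3 to 4 other pathway genes called lower and 37 to 40 called higher. Over all genes it gave 2710 to 3224 higher and 2015 to 2174 lower, the fewest lower without HFD replicate 1, where fewer samples were fitted. A diet left with 1 library was assumed to vary like the other. The DESeq2 Wald test called 9 other pathway genes lower, and the cause was not tested. With longest transcripts the inhibitor sum over the subunit sum was 1.31 in NCD and 1.86 in HFD (1.68 and 2.40 with summed exons), since Nfkb1 is then divided by a shorter length.

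The replicate block gave 3252 genes higher and 2583 lower, with 3 subunits and 4 inhibitors higher, and 42 other pathway genes higher and 4 lower. Deviations of same-numbered libraries had a correlation of 0.00211 across genes, so the numbers are not known to pair the samples. With 2 libraries per diet the spread of each gene is estimated mostly from other genes.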

Other observations

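Some genes of the pathway had HFD replicates that differed widely while most others agreed closely. Tnfaip3 was at 71.4 and 119.2 CPM, Rela at 95.6 and 128.6, Bcl2l1 at 29.3 and 72.1 and Irak2, a kinase of IL-1 receptor signalling, at 28.5 and 42.6, each lower in HFD replicate 1. Other genes were apart in the reverse order, such as Nfkbie at 23.5 and 19.3 CPM and Il18r1 at 7.04 and 5.58. Irak2 also spread in NCD, at 20.2 and 30.9 CPM. Nfkb1, Nfkb2 and Nfkbiz differed by less than 1 CPM between the same HFD libraries.

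Psd, an antisense neighbour of Nfkb2, and Nfkb2 itself had counts in opposite order between the diets, whereas Ccer2 and Nfkbib had counts in the same order. Counts of the other antisense neighbours, AC114539.1 and Sirt2, overlapped between the diets. Among B cell genes of the pathway, Tnfrsf13c, encoding the BAFF receptor that acts through NIK, was at 4.19 and 3.07 CPM in NCD and at 15.5 and 12.8 CPM in HFD (log2 change 1.96 ± 0.209, edgeR adjusted p = 0.00180), beside the rise of all 6 B cell markers. The genes in this part were named after their values were seen.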
